A study of Mus musculus with 4 samples.

Results

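The genes described here encode the receptor channels and G protein-coupled receptors through which cortical neurons answer glutamate, and the channels through which they answer GABA. They were taken from the protein-coding transcripts of the cortex as every gene whose symbol begins with Gria, Grik, Grin, Grid or Grm and a digit, or with Gabr, read without regard to letter case. This gave 39 of the 15272 protein-coding genes counted, with 74 protein-coding transcripts. They comprised 4 AMPA receptor genes (Gria), 5 kainate receptor genes (Grik), 6 NMDA receptor genes (Grin), 3 genes named after the delta receptors (Grid), 7 metabotropic glutamate receptor genes (Grm) and 14 GABA-A receptor genes, of which 5 were alpha (Gabra), 3 beta (Gabrb), 3 gamma (Gabrg) and 3 delta, theta and rho subunits (Gabrd, Gabrq and Gabrr2). One gene that the symbols bring in encodes delphilin, a scaffold protein and not itself a receptor, and it is called the delphilin gene here. Further genes of these families, such as Gabra6, Gabre, Grin3b and Grm6, were not analysed here.

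Cortex was taken from 2 male APPswe/PS1ΔE9 mice (APP libraries APP-3 and APP-4) and from 2 male WT mice (WT-1 and WT-2), all 12 months old and on a C57BL/6 background. APPswe/PS1ΔE9 mice carry a mutant amyloid precursor protein and a human presenilin 1 lacking an exon, both driven by the mouse prion protein promoter, which is active in neurons and in glia, so that amyloid plaques form in cortex. WT mice carried neither transgene. Libraries were strand-specific and made after removal of ribosomal RNA, and the region of cortex and its layers were not given in the sources used here.

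Counts per library ranged from 28525117 to 43881196, and the receptor genes took between 0.604% and 0.654% of them. App, counted on the mouse transcripts, stood at 2688 and 2383 CPM (read counts scaled to the normalised library size) in APP-3 and APP-4 and at 856 and 905 in WT-1 and WT-2, which goes with the labels. All 10 markers of cortical excitatory neurons were counted, with summed levels of 701, 662, 781 and 789 CPM in APP-3, APP-4, WT-1 and WT-2. In the same order, microglial markers summed to 514, 631, 301 and 304 CPM, oligodendrocyte markers to 1607, 1393, 1024 and 1156 CPM, astrocyte markers to 4718, 5065, 4212 and 3845 CPM, and striatal markers to 329, 671, 449 and 501 CPM. In whole tissue, fewer cells of a type and less RNA per cell cannot be told apart, and the part of these shifts in the receptor values below was not tested.

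AMPA, kainate and NMDA receptors are glutamate-gated cation channels built of 4 subunits. AMPA receptors carry most of the fast excitatory current, and their GluA2 subunit, encoded by Gria2, keeps calcium out. NMDA receptors combine the obligatory GluN1 subunit (Grin1) with GluN2 subunits that set the time course of the current. Metabotropic receptors act through G proteins, and GABA-A receptors are chloride channels of 5 subunits, usually alpha, beta and gamma or delta.

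Per transcript length, which allows genes to be compared, Gria2 stood highest of the 39, at a mean of 117 RPKM (CPM per kilobase of transcript) over the 4 libraries, with Grm5 at 83.7 RPKM. Gria3, Gabrb2 and Gria1 stood at 64.7, 63.2 and 56.3 RPKM. The NMDA receptor genes Grin2a, Grin1 and Grin2b lay close together, at 43.2, 41.1 and 40.9 RPKM, although Grin2b, which has a far longer transcript, held by far the most counts. At the other end, Grin2d, the delphilin gene, Gabrq and Gabrr2 lay under 1 RPKM in every library, and these 4 genes were also those under 5 CPM on average. Gabrr2, a rho subunit best known from retina, had between 6 and 18 counts, and it was the member that did not reach 10 counts in every library.

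**Figure D1:**
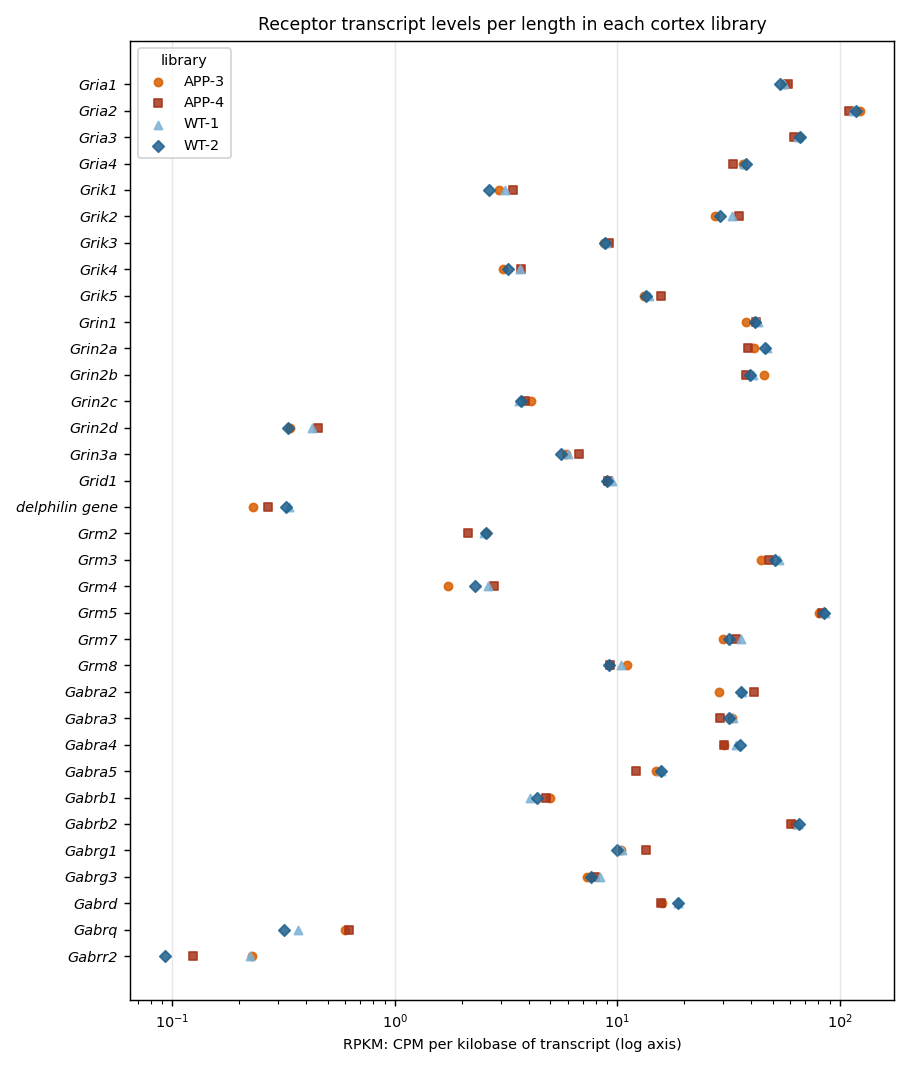
Level of 34 of the 39 genes in each library, in RPKM (CPM per kilobase of transcript) on a log axis, with orange and red points for the APP libraries and blue points for the WT libraries. The order of the genes was much the same in all 4 libraries, with Gria2 at a mean of 117 and Gabrr2 at a mean of 0.167.

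Between APP and WT cortex, 0 of the 39 receptor genes passed the study's cut-offs, a 1.5-fold difference at an FDR under 0.05, in edgeR's quasi-likelihood test, against 0.862% of all 24822 features tested and 1.30% of the protein-coding ones. The count remained 0 without the fold change (1.16% of all features), and DESeq2 also gave 0 (1.27% of all features), while edgeR's likelihood ratio test gave 1, Gabrq (2.51% of all features). At an unadjusted p under 0.05 there were 6 genes, or 15.4%, against 10.6% of all features and 13.9% of the protein-coding ones. Higher in APP were Gabrq and Gabrb1 (5.13%, against 6.61% of all features), and lower were Gabrd, Grin2a, Gabra4 and Grm3 (10.3%, against 3.94% of all features). These shares by direction were set against all features and not against the protein-coding ones alone. The 95% intervals bound what was missed: for 36 of the 39 genes the interval lay within a 1.5-fold difference in either direction (52.3% of all features), the exceptions being the delphilin gene, Gabrq and Gabrr2. With 2 libraries a group, an exact permutation test of a single value cannot give a p below 0.333.

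**Figure D2:**
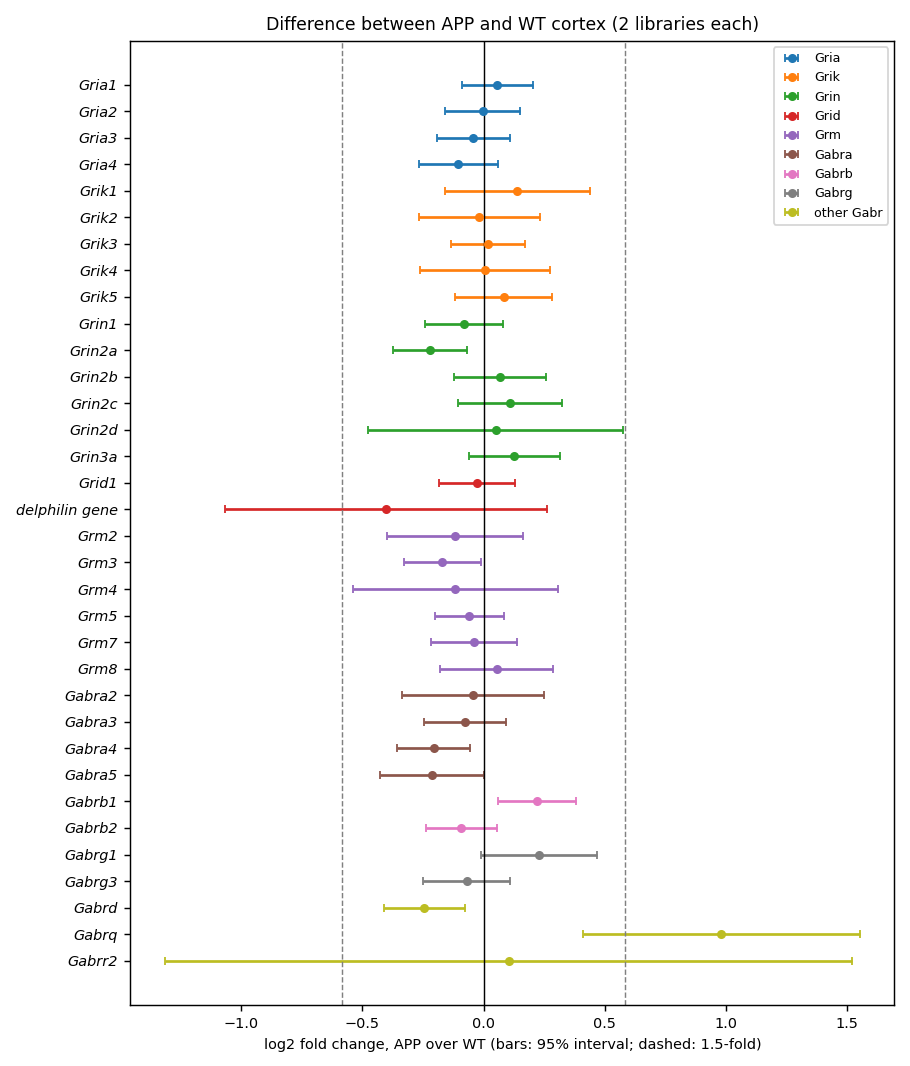
Log2 fold change of 34 of the 39 genes in APP over WT, coloured by subfamily. Bars show the 95% interval derived from edgeR's quasi-likelihood test, and dashed lines mark a 1.5-fold difference. The point of Gabrq, at 0.98, lies past the dashed line, and its interval runs from 0.41 to 1.55.

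The log2 fold change was below 0 for 24 of the 39 genes, or 61.5%, against 48.9% of all features, and the median was -0.039 against 0.0051 over all features. Over the 15272 protein-coding features the median was -0.0025, and over the 10591 of these with at least 5 CPM it was -0.016. The medians of the classes were 0.011 for the 18 ionotropic glutamate receptor genes, -0.070 for the 7 metabotropic genes and -0.072 for the 14 GABA-A genes. Both APP libraries lay above both WT libraries for 4 genes (10.3%, background 20.8%) and below them for 10 (25.6%, background 19.6%). Among all 39 genes, 35.9% did not overlap between the groups in either direction, which is below the 40.5% of all features.

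The log2 fold changes of the AMPA receptor genes ran from -0.10 to 0.06. Gria2 stood at 1241 and 1114 CPM in APP-3 and APP-4 and at 1160 and 1199 CPM in WT-1 and WT-2, so that the APP libraries lay on either side of the WT ones and the log2 fold change was -0.0029 (SE 0.070). It took 60.0%, 58.1%, 58.4% and 59.2% of all AMPA receptor counts in that order. Gria4, the subunit often found in interneurons, had the largest difference among the 4 genes, with 177 and 161 CPM in APP against 179 and 184 CPM in WT, a log2 fold change of -0.10 (SE 0.07) and an adjusted p of 0.694. Gria1, the subunit that is added to synapses during potentiation, was the AMPA receptor gene whose APP libraries both lay above WT, by a log2 fold change of 0.06 (SE 0.07). Summed over the 4 genes, the AMPA receptor level was 2070 and 1918 CPM in APP and 1986 and 2025 CPM in WT (exact permutation p = 1).

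Each AMPA receptor gene has a pair of mutually exclusive exons, flip and flop, which lie in the ligand-binding domain and set how fast the channel desensitizes. They are shown for Gria1 and Gria2 because the deposited counts fall on opposite forms of these genes. In GRCm38 the Gria1 exons lie on the plus strand at chr11:57310608-57310722 (flip) and chr11:57309769-57309883 (flop), and the Gria2 exons on the minus strand at chr3:80690404-80690518 (flip) and chr3:80691320-80691434 (flop). All are coding exons of 115 bases, and capitals mark the bases at which flip and flop of the same gene differ.
Gria1 flip: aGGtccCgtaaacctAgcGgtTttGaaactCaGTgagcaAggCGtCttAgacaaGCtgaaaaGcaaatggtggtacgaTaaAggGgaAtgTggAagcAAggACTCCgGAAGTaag
Gria1 flop: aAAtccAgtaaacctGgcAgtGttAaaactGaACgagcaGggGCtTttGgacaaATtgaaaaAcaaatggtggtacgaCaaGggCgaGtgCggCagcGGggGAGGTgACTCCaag
Gria2 flip: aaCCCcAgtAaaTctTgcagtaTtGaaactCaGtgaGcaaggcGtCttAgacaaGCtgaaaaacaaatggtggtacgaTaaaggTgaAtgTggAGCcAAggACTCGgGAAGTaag
Gria2 flop: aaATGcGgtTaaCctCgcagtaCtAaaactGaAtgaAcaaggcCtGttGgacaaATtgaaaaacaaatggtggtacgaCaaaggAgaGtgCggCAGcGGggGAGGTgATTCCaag
Flip and flop differ at 36 bases in Gria1 and in Gria2, at 32 in Gria3 and at 31 in Gria4. Between genes the same form is closer, with 6 to 14 differing bases. Gria1 and Gria2 differ at 13 bases in the flip exon and at 14 in the flop exon, while the closest pair, the flop exons of Gria3 and Gria4, differ at 6. The aligner allowed 7 mismatches in a read of 100 bases.

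In Gria1, Gria2 and Gria3 nearly all counts had been placed on a single form in every library. The Gria1 transcript with the flop exon held 2.70%, 2.55%, 2.77% and 2.48% of the coding counts of Gria1 in APP-3, APP-4, WT-1 and WT-2. The flip transcript of Gria2 held 1.65%, 1.65%, 1.68% and 1.59% of the Gria2 counts, and the flop transcript of Gria3 between 0.799% and 1.04%. The groups overlapped for each of them. How reads shared by several transcripts of a gene were placed is not stated, so these shares describe the deposited table and are not a measure of splicing.

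A low share was also placed on the 5b form of Grm5. As for the AMPA receptor genes, this share describes the deposited table and is not a measure of splicing. The 5b form has a coding exon of 96 bases at chr7:88116193-88116288 on the plus strand. This exon is in no other coding transcript of Grm5 counted here.
Grm5 5b exon: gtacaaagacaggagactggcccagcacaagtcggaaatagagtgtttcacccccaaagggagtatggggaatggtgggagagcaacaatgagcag
The Grm5 transcript with the 5b exon held 172 and 201 counts in APP and 261 and 212 in WT. As a share of the gene this was 1.41% and 1.51% in APP against 1.34% and 1.35% in WT, without overlap. The level of the transcript did overlap, at 5.98 and 6.45 CPM in APP and 5.92 and 5.99 CPM in WT (adjusted p 0.955 in edgeR's quasi-likelihood test). Over all 74 protein-coding transcripts of the 39 genes, 0 had an FDR under 0.05 (1.06% of all single transcripts) and 8 an unadjusted p under 0.05 (9.18% of all), and of 31 further transcripts of other types, such as retained introns, 0 passed either limit.

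**Figure D3:**
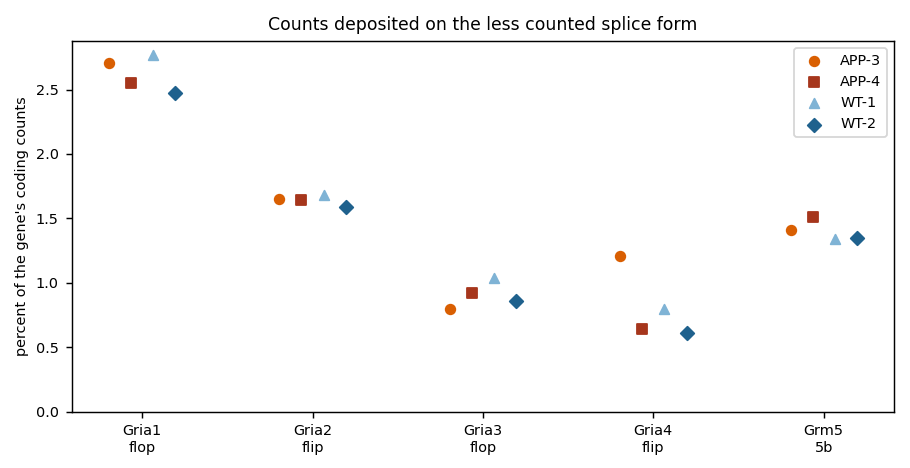
Percent of the coding counts of a gene that the deposited table places on the transcript with the less counted splice form, for each library. APP and WT points overlap for 4 of the 5 forms, the Grm5 5b points being the exception, and the Gria4 flip points rest on 32 to 63 counts.

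Kainate receptors modulate release and excitability and are made of the GluK1 to GluK3 subunits, alone or with GluK4 and GluK5. Grik2 had the most counts, at 89.6 and 115 CPM in APP and 111 and 95.6 CPM in WT, with the WT libraries inside the range of the APP libraries (log2 fold change -0.02, SE 0.11). Grik1, which is expressed in interneurons, differed most, at 10.3 and 11.9 CPM against 10.9 and 9.25 CPM, and the groups again overlapped (0.14, SE 0.13, adjusted p 0.806). The groups overlapped for all 5 kainate receptor genes, and their summed level was 240 and 282 CPM in APP and 267 and 246 CPM in WT (exact permutation p = 1). Of the delta receptors, which bind cerebellin and organise synapses, Grid1 stood at 51.6 and 51.7 CPM in APP and 53.9 and 51.4 CPM in WT. The delphilin gene had 23 and 29 counts in APP and 51 and 40 in WT, or 0.795 and 0.934 CPM against 1.16 and 1.13 CPM, and its log2 fold change of -0.40 (SE 0.30) had an adjusted p of 0.717.

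Of the 6 NMDA receptor genes, 0 passed an FDR of 0.05. Grin2a, whose subunit replaces GluN2B at maturing synapses and gives faster currents, stood at 183 and 171 CPM in APP-3 and APP-4 and at 208 and 204 CPM in WT-1 and WT-2. Both APP libraries lay below both WT libraries, and the log2 fold change was -0.22 (SE 0.07, adjusted p 0.237). Grin2b, which encodes the slower GluN2B, stood at 1059 and 882 CPM in APP and 941 and 910 CPM in WT, with APP-3 the highest and APP-4 the lowest of the 4 libraries (0.07, SE 0.08, adjusted p 0.866), and its log2 fold change was -0.08 without APP-3. As a share of the counts of the pair, which does not depend on how libraries are scaled, Grin2a took 14.7% and 16.3% in APP and 18.1% and 18.3% in WT. The difference was -2.72 percentage points, the groups did not overlap, and the exact permutation p was 0.333, the smallest that 2 against 2 libraries can give. Grin1, common to all NMDA receptors, overlapped between the groups (-0.08, SE 0.07), as did Grin2d and Grin3a, while Grin2c was slightly higher in both APP libraries (0.11, SE 0.10). The summed NMDA receptor level was 1465 and 1299 CPM in APP and 1393 and 1349 CPM in WT (exact permutation p = 1).

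Metabotropic receptors fall into a Gq-coupled group 1, which includes Grm5, a Gi-coupled group 2 (Grm2 and Grm3) and a Gi-coupled group 3 (here Grm4, Grm7 and Grm8). Of the 7 genes, 6 had a log2 fold change below 0 (background 48.9%), with a median of -0.07, and 0 passed an FDR of 0.05. Grm5, the main group 1 receptor of cortex, stood at 422 and 428 CPM in APP and 442 and 443 CPM in WT, so that the groups did not overlap although the difference was small (-0.06, SE 0.06, adjusted p 0.849). Grm3, which is found in astrocytes as well as neurons, stood at 135 and 147 CPM in APP and 162 and 155 CPM in WT. The groups again did not overlap (-0.17, SE 0.07, adjusted p 0.435). The astrocyte marker sum was higher in both APP libraries, and its part in the Grm3 values was not tested. The other 5 genes overlapped between the groups, including Grm7 at 86.6 to 98.3 CPM and Grm4 at 8.02 to 12.9 CPM. The summed level of the 7 genes was 760 and 795 CPM in APP and 829 and 810 CPM in WT (exact permutation p = 0.333).

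The GABA-A alpha subunits form the GABA-binding site together with the beta subunits, and they set where a receptor sits and which drugs it binds. All 5 alpha genes had a log2 fold change below 0 (background 48.9%), with a median of -0.12, and 3 of them were lower in APP without overlap between the groups (background 19.6%). The direction of the 5 genes was the same under each scaling of the libraries tried. However, Gabra2 turned when APP-3 was left out (0.19), and Gabra3 turned when APP-4 was left out (0.0055). Gabra4, which forms receptors outside synapses, stood at 124 and 124 CPM in APP and 140 and 147 CPM in WT, nearly equal in both APP mice (-0.21, SE 0.07, adjusted p 0.265). Gabra5, best known from extrasynaptic receptors of hippocampal and deep cortical neurons, stood at 40.0 and 32.5 CPM against 42.0 and 41.9 CPM (-0.21, SE 0.10, adjusted p 0.486). Summed over the alpha genes, APP held 840 and 783 CPM and WT 883 and 886 CPM, a log2 difference of -0.12 (exact permutation p = 0.333).

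The delta subunit, encoded by Gabrd, joins the product of Gabra4 in the extrasynaptic receptors that carry tonic inhibition in forebrain. Gabrd stood at 30.6 and 30.3 CPM in APP and at 36.1 and 36.1 CPM in WT. Both pairs of libraries were nearly identical within their group, and the log2 fold change was -0.24 (SE 0.08), with an interval from -0.41 to -0.08 and an adjusted p of 0.225. Together Gabra4 and Gabrd took 8.38% and 8.91% of GABA-A counts in APP and 9.41% and 9.59% in WT (exact permutation p = 0.333). Both genes kept their direction in each fit with a library left out. Of the 10 markers of cortical excitatory neurons, 9 were lower in APP, at a median of -0.20 on the log2 scale. Of these markers, 0 passed an FDR of 0.05. Among 10 interneuron markers, 7 were lower (median -0.13, Pvalb past that FDR). Thalamic markers went the other way, with 6 of 8 higher (median 0.37, Calb2 past that FDR). The summed interneuron markers overlapped between the groups, at 684 and 803 CPM in APP against 803 and 764 CPM in WT. So did the summed thalamic markers, at 275 and 249 CPM in APP against 258 and 248 CPM in WT. The part of these marker differences in the Gabra4 and Gabrd values was not tested.

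Gabrb1 stood at 68.3 and 65.9 CPM in APP and at 55.6 and 59.6 CPM in WT, higher in both APP mice (0.22, SE 0.07, adjusted p 0.270), and took 11.2% and 11.7% of beta counts in APP against 9.30% and 9.67% in WT. Gabrb2, the beta subunit common at synapses, stood at 248 and 240 CPM against 259 and 261 CPM (-0.09, SE 0.07). Of the 3 beta genes, 2 had a log2 fold change below 0 and Gabrb1 one above it. Gabrg1, which is expressed in astrocytes as well as in neurons of subcortical nuclei, stood at 49.8 CPM in APP-3, within the WT values of 50.0 and 47.4 CPM, and at 64.4 CPM in APP-4 (0.23, SE 0.11, adjusted p 0.503).

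Most GABA-A genes lie in clusters of neighbours. On chromosome 5 (GRCm38) Gabrg1, Gabra2, Gabra4 and Gabrb1 follow each other between positions 70751047 and 72149037. Gabra4 on the minus strand and Gabrb1 on the plus strand start head to head, and their annotated ranges overlap, and whether the counting used the strand of a read is not stated. Their log2 fold changes were -0.21 and 0.22, each without overlap between the groups and neither past an FDR of 0.05. On chromosome 7, Gabrg3 and Gabra5 had log2 fold changes of -0.07 and -0.21.

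Gabrq, which encodes the theta subunit and is best known from hypothalamus and monoaminergic nuclei, had the largest log2 fold change of the 39 genes. It had 62 and 68 counts in APP and 56 and 32 in WT, or 2.14 and 2.19 CPM against 1.27 and 0.903 CPM. Both APP libraries lay above both WT libraries, and the log2 fold change was 0.98 (SE 0.26), with an adjusted p of 0.140 in edgeR's quasi-likelihood test and of 0.0342 in its likelihood ratio test. Of 10 hypothalamic markers, 7 were counted and all 7 were higher in APP, with 4 past an FDR of 0.05, and their sums were 10.8 and 13.9 CPM in APP against 5.27 and 4.94 CPM in WT. The part of hypothalamic RNA in the Gabrq values was not tested.

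**Figure D4:**
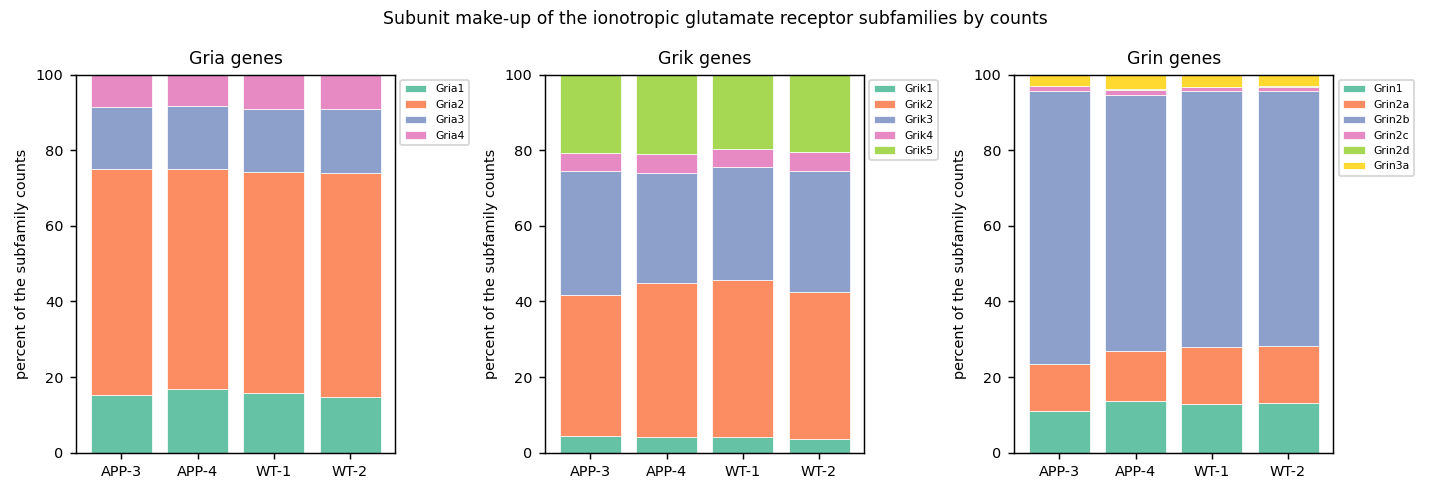
Percent of the counts of a subfamily taken by each of its genes, stacked to 100 for each library, for the AMPA, kainate and NMDA receptor genes. Gria2 takes 58.1% to 60.0% of AMPA receptor counts in every library, and the Grin2a layer is thinner in APP-3 and APP-4.

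The receptor classes were also set against one another. The summed level was 3845 and 3582 CPM in APP and 3728 and 3695 CPM in WT for the ionotropic glutamate receptors, and 1846 and 1735 CPM against 1869 and 1906 CPM for the GABA-A receptors. GABA-A genes took 32.4% and 32.6% of the counts of both classes in APP and 33.4% and 34.0% in WT, a difference of -1.18 percentage points without overlap (exact permutation p = 0.333). All 39 genes together summed to 6452 and 6112 CPM in APP and 6426 and 6410 CPM in WT.

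The APP libraries differed from each other more than the WT libraries did, and the receptor genes were part of this. Among the 35 receptor genes of at least 5 CPM, 28.6% differed by more than 0.25 on the log2 scale between APP-3 and APP-4, against 18.2% of 12357 features of that level. Between WT-1 and WT-2 the shares were 2.86% and 7.01%. Grm4 was 1.61-fold higher in APP-4 than in APP-3, Gabra2 1.44-fold, Gabrg1 1.29-fold and Grik2 1.28-fold. Gabra5, Grm8, Grm2 and Grin2b lay at the other end, at 0.811, 0.826, 0.830 and 0.833 of the APP-3 level. The sum of striatal markers went the same way as the first of these, at 329 CPM in APP-3 and 671 CPM in APP-4 with the WT libraries between them, and its part in these gaps was not tested.

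**Figure D5:**
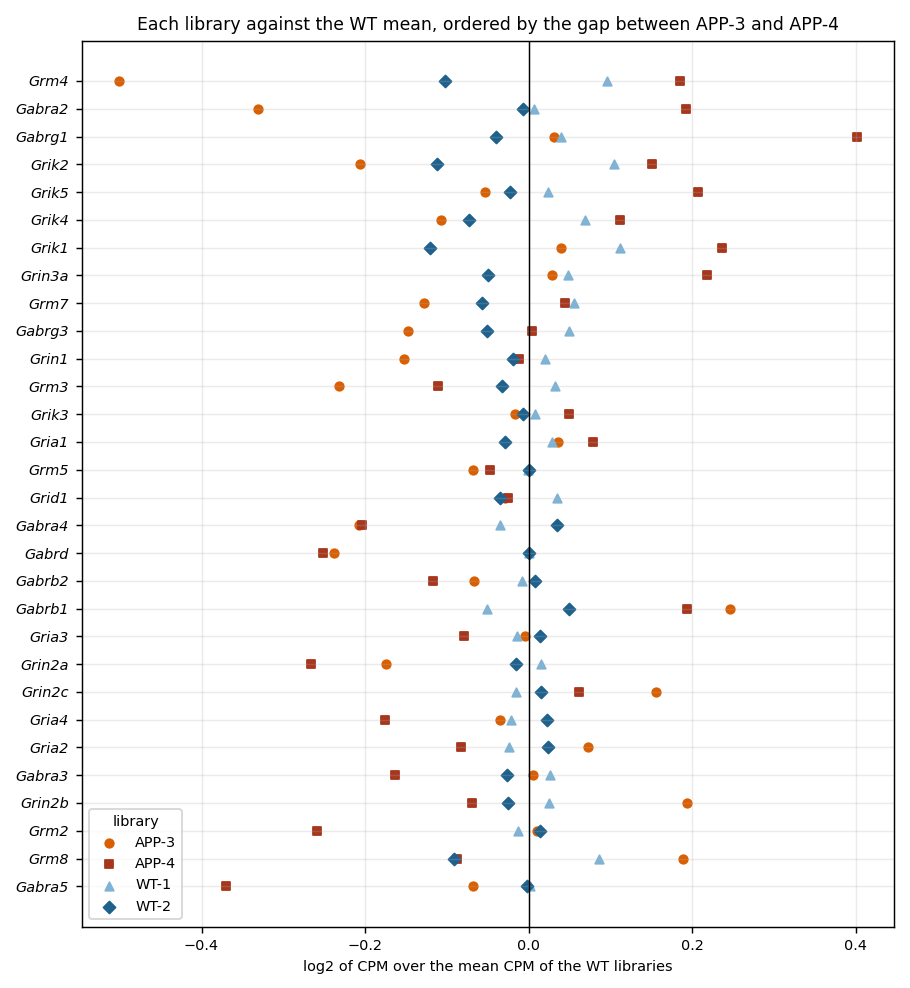
Log2 of the CPM of each library over the mean CPM of the WT libraries, for 30 genes of at least 5 CPM, ordered by the gap between APP-3 and APP-4. At the top, from Grm4 (1.61-fold) down, APP-4 lies to the right of APP-3, and at the bottom, from Gabra5 up, to the left, while the APP points of Gabra4, Gabrd and Grid1 nearly coincide.

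Which receptor genes passed depended on which APP mouse was used. Without APP-3, 6 genes had an FDR under 0.05 (edgeR's quasi-likelihood test, 6.49% of all features), among them Gabrg1 (0.40), Gabra4 (-0.21), Gabra5 (-0.38) and Grin2a (-0.27). Without APP-4 there were 4 (4.20% of all features), Grin2b (0.19), Grm3 (-0.23), Gabra2 (-0.33) and Grm4 (-0.50), and 0 genes were in both lists. In these fits the lone APP library is assumed to vary as the WT libraries do. No gene of either list reached a 1.5-fold difference, and without WT-1 or without WT-2 the count was 0. Over the fits with 1 library left out, 20 of the 39 genes kept the sign of their log2 fold change and 19 did not.

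The transcripts of proteins that work with these receptors were counted in the same libraries. Among 22 scaffold genes of glutamate synapses, Homer1, which links group 1 metabotropic receptors to intracellular calcium stores and has a short form induced by activity, was lower in APP, at 589 and 543 CPM against 721 and 831 CPM (log2 fold change -0.45, SE 0.08, adjusted p 0.0275), and it was the 1 gene of the list past an FDR of 0.05. It is named because of its value. Beside it, 10 of 10 immediate-early genes were lower in APP, with a median of -0.50 and Egr1 and Arc past an FDR of 0.05, and the part of this in the Homer1 value was not tested. No gene passed that FDR among 13 AMPA receptor auxiliary genes (median 0.05), 2 kainate receptor auxiliary genes (-0.02), 13 GABA-A clustering and assembly genes (-0.02), 6 GABA-B receptor genes (-0.09) or 15 genes of transmitter synthesis, loading and uptake (-0.03). At an unadjusted p under 0.05 these lists held 1, 0, 2, 2 and 6 genes in that order, and the scaffold list held 1 higher and 3 lower in APP, beside 10.6% of all features. The 6 genes of the transmitter list were 4 higher and 2 lower in APP.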

How the data were processed

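RNA from the cortex of 2 APP and 2 WT mice, 12 months old, was depleted of ribosomal RNA and sequenced as strand-specific pairs of 100 bases. The authors aligned reads with FANSe2 to Ensembl mouse transcripts, allowing 7 mismatches, and deposited the raw count of reads on each of 37539 transcripts, without normalization. The submitters' processing notes name CASAVA 1.8, edgeR and the build hg19, although the transcripts are those of mouse, and the Ensembl release is not given in the sources used here. The deposited columns of the authors' comparison (log2 fold change, mean level, p-value and FDR) were left aside, as were 4 further columns of CPM values for the libraries. The numbers in the WT columns matched the labels of single mice, whereas the APP columns could be tied to the group alone, and nothing states that a mouse gave more than 1 library.

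Transcripts were matched to GENCODE M21 (GRCm38), which held 36845 of them, a further 388 were placed by their deposited symbol, and counts were summed by gene and transcript type into 24822 features. All features had at least 10 counts over the libraries. Groups were compared in R 4.3.3 with edgeR 4.0.16 (quasi-likelihood test, TMM normalization, no covariate, Benjamini-Hochberg adjustment over all features). TMM factors were between 0.989 and 1.01. CPM values use TMM library sizes, and RPKM divides each transcript by its GENCODE length, leaving out Grik2 transcripts without one. Standard errors were derived from the log2 fold change and the F statistic of the quasi-likelihood test. The 95% intervals were built from these with a t quantile. Shares and sums were compared with an exact two-sided permutation test over the 6 ways to split the libraries, with Python 3.11.15 and pandas 2.3.3. Reads carry no molecular identifiers.

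Tested on simulated data for 24815 genes, the quasi-likelihood test called 60% of genes changed by 1.5-fold, 100% of those changed by 2-fold and 7 unchanged genes. In it 50 genes were changed at each fold, and all genes had the same dispersion. The changed genes were drawn from better counted features. Grin2d, Gabrq, Gabrr2 and the delphilin gene had fewer counts than these, so the recovery does not extend to them. Values in every library are given for the gene of each subfamily with the most CPM, for that with the largest change, and for genes with an unadjusted p under 0.05. A few of the 39 genes are not reported here by name, although they enter the counts, medians and sums. The members, the lists and this rule were chosen with earlier results of these data known. Alternatives were DESeq2 1.42.0, edgeR's likelihood ratio test, other scalings and filters, all transcript types summed and leaving out each library. Deposited symbols alone and single transcripts were added after seeing the data.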

Additional observations from a re-analysis of the deposited data

How the results depend on the processing

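The count of 0 receptor genes past both cut-offs held under each alternative run except edgeR's likelihood ratio test, which gave 1 (Gabrq, log2 fold change 0.98). Without the fold change the likelihood ratio test again gave 1, and leaving out 1 library gave 0 to 6, with 6 without APP-3, 4 without APP-4 and 0 without either WT library. The count at an unadjusted p under 0.05 was 6 and ranged from 1 without WT-1 to 16 without APP-3. Subfamily medians of log2 fold change moved with the libraries: with 1 left out, they ran from -0.087 to 0.016 for Gria, from -0.054 to 0.14 for Grik, from -0.022 to 0.039 for Gabrg, from -0.063 to 0.090 for Grin, from -0.36 to 0.0039 for Grid, from -0.12 to 0.014 for Gabrb and from -0.26 to 0.89 for the delta, theta and rho genes, whose median was 0.36 when at least 10 counts in every library were required, since this removed Gabrr2. The Gabra and Grm medians stayed below 0, from -0.21 to -0.07 and from -0.13 to -0.05. The signs of 4 of the 16 genes given in full turned in a setting, all of them close to 0 in the fit to all libraries: with 1 library left out, Gria2 ran from -0.089 to 0.073 (above 0 without APP-4 or WT-2), Grin2b from -0.075 (without APP-3) to 0.19, Grid1 from -0.061 to 0.0039 (without WT-1) and Grik2 from -0.21 to 0.14 (above 0 without APP-3 or WT-1), and Grik2 was 0.0039 with all transcript types summed. The cause was not tested. No paired analysis was run because the labels pair no APP mouse with a WT mouse. The APP columns carry the numbers 3 and 4, which match no number in the labels.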
